A study of Mus musculus with 8 samples.

Results

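The brightest signals on these mouse kidney microRNA (miRNA) arrays came from 4 late entries of the miRNA catalogue: mmu-miR-6366, mmu-miR-3963, mmu-miR-5100 and mmu-miR-3968 (the species prefix is left out from here on). They are 4 of the 1881 mouse miRNAs on the array, each read by 2 probes, and were taken by name. They had been chosen by their measured array signal, with earlier results of these data known, so their rank and the size of their share of the signal are descriptions without a test. In sham kidney they held places 1 to 4 by mean scaled signal. The dimmest of them, miR-3968, had 20163 and the next miRNA, let-7a-5p, 11194.

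The study compared kidneys of male C57BL/6 mice aged 9 weeks after ischemia-reperfusion injury (IRI), a model of acute kidney injury, with kidneys of sham-operated mice. In the 4 IRI samples (replicates 1, 2, 3 and 18) the right kidney was removed and the left was clamped for 25 or 45 min and taken 12 or 24 h later; which sample had which clamp and harvest time is not in the labels. The 4 sham samples (replicates 1, 2, 3 and 6) had a midline incision only, so nephrectomy and injury cannot be told apart. Total RNA of each sample was hybridised to 1 single-colour array. Nothing in the labels states that every sample came from an animal of its own, and p-values therefore cover no more than the spread between these samples, which may be technical. Because kidney tissue was used and not sorted cells, fewer cells that hold an miRNA and less of it per cell cannot be told apart.

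An miRNA is a short RNA cut from a hairpin precursor. It guides Argonaute proteins to messenger RNAs, mainly by pairing of its seed, bases 2 to 8, and lowers their translation or stability. Numbers in the miRNA catalogue follow the order of entry, so high numbers mark late additions, many of them known only from sequencing and expressed at low levels in most tissues. An array signal reflects both how much RNA is present and how well the probe binds it, so a place by signal is not a place by number of molecules.

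The mature sequences of the 4 entries are shown first, because 3 of them share letters. They are RefSeq's (build GRCm38.p6), 5′ to 3′, with the seed in capitals.
miR-6366: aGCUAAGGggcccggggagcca
miR-3963: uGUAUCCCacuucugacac
miR-5100: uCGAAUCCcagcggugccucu
miR-3968: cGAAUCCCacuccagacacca

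No 2 of them have the same seed, and no other of the 1679 mature mouse miRNAs in the RefSeq table shares a seed with any of them. miR-3968 and miR-5100 nevertheless hold the same run of 9 bases, cgaauccca, at bases 1 to 9 of miR-3968 and 2 to 10 of miR-5100. The seeds are thus the same letters shifted by 1 base. Among the 1679 sequences only these 2 hold that run. miR-3968 and miR-3963 share a run of 8 bases, AUCCCACU, at bases 4 to 11 of both, which again no other listed sequence holds. The core AUCCCA common to all 3 is in 7 of the 1679 sequences (0.417%). miR-6366 stands apart: its longest run in common with any of the other 3 is 3 bases. These runs were looked for after the sequences were seen, in the strand of the mature RNA alone, and a match is a description.

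Base composition also separates them. G and C made up 72.7% of miR-6366, 61.9% of miR-5100, 57.1% of miR-3968 and 47.4% of miR-3963, against a median of 52.2% over all listed sequences. miR-3963 has 19 bases, fewer than the median of 22. miR-6366 and miR-3968 both end in CCA, as do 23 of the 1679 sequences (1.37%). Cells add these 3 bases to the 3′ end of transfer RNAs, and no transfer RNA sequences were compared here. In both precursors, shown next, the CCA is part of the listed sequence and further bases follow it.

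Their precursors are shown because the mature piece sits differently in each (RefSeq, GRCm38.p6; the mature miRNA is in capitals).
Mir6366, chr16:18165089-18165170, minus strand: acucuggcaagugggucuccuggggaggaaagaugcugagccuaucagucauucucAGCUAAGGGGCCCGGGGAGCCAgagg
Mir3963, chr3:151023792-151023862, minus strand: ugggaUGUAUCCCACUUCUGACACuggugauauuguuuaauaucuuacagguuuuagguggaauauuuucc
Mir5100, chr11:60728663-60728726, plus strand: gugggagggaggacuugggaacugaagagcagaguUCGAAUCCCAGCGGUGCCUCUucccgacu
Mir3968, chr11:115447961-115448060, minus strand: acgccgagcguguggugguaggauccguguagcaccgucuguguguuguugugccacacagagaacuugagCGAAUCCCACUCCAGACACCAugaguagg

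The mature piece lies in the 3′ arm of Mir6366, Mir5100 and Mir3968 and in the 5′ arm of Mir3963. Mir3968 lies within the span of the protein-coding gene Trim80 and Mir5100 within that of Mief2, whose protein acts in mitochondrial dynamics, in the RefSeq gene table. Mir6366 and Mir3963 overlap no other gene there. Exons, introns and strand of the host genes were not compared. The predicted folding energy per base (RNAfold) was weak for Mir3968, at -0.289 kcal/mol, and for Mir3963, at -0.32, with only 9.03% and 16.3% of 997 mouse precursors folding more weakly. Mir5100, at -0.39, lay near the median of -0.41, and Mir6366 folded more firmly, at -0.46, than 72.4% of precursors.

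The probes are shown because each pair differs by 1 base. They are DNA, 5′ to 3′ as in the scanner files, and the capital is the base that the longer probe has in addition.
miR-6366, 11 bases: tggctccccgg
miR-6366, 12 bases: tggctccccggG
miR-3963, 15 bases: gtgtcagaagtggga
miR-3963, 16 bases: gtgtcagaagtgggaT
miR-5100, 13 bases: agaggcaccgctg
miR-5100, 14 bases: agaggcaccgctgG
miR-3968, 14 bases: tggtgtctggagtg
miR-3968, 15 bases: tggtgtctggagtgG

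All 8 probes are complementary to the 3′ end of their miRNA, and none matches another listed mature sequence in full or over the last 10 bases of its miRNA. The miR-3968 probes cover bases 7 or 8 to 21, and the miR-5100 probes bases 8 or 9 to 21, so they take in 2 or 3 of the run of 9 bases that these entries share. The miR-3963 probes, in contrast, cover 7 or 8 of the 8 bases shared with miR-3968. Laid along miR-3968 without gaps, the 15-base miR-3963 probe matched it at 13 bases and the 16-base probe at 14, each with 2 mismatches. How much miR-3968 adds to the miR-3963 signal was not tested. Every other probe had at least 4 mismatches to each of the other 3 entries within their length. The shorter miR-6366 probe is among the shortest on the array: 145 of 4415 miRNA probes (3.28%) have 11 bases or fewer. G and C made up 81.8% of it, against a median of 53.3% over all probes.

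All 8 arrays were on 1 slide read in 1 scan, the sham samples in its row 1 and the IRI samples in its row 2, so row and group cannot be told apart. Detected miRNAs numbered 327 to 379 on sham and 393 to 447 on IRI arrays. Of the tissue markers, the 4 kidney tubule miRNAs checked were detected on all 8 arrays, with a summed scaled signal of 13971 to 16412 in sham and 10072 to 11516 in IRI. The liver marker miR-122-5p lay at the signal floor of 17.3 on every sham array and reached at most 33.5 in IRI. Of 2 muscle markers 1 was detected on all 8 arrays, as was 1 of 2 brain markers. The muscle pair summed to 38.7 to 46.4 in sham and 34.5 to 36.8 in IRI, the brain pair to 43.7 to 54.7 and 45.9 to 58.9. The 2 endothelial markers summed to 4623 to 5333 in sham and 3836 to 4321 in IRI. The 3 red blood cell markers summed to 77.3 to 910 in sham and 2940 to 4087 in IRI. The 3 leukocyte markers summed to 418 to 563 and 625 to 904, but did not move together. Their log2 change, IRI minus sham, was 1.53 for miR-223-3p, 0.29 for miR-142a-3p and -0.57 for miR-150-5p. Only miR-223-3p was called in the fit described below (adjusted p = 0.000488, limma). The part of blood cells in the results below was not tested. For the 4 entries, all 120 spots of each probe over the 8 arrays were well above background and 0 were saturated.

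The 4 entries together held most of the signal. Their share of the total miRNA signal was 65.4%, 64.3%, 66.1% and 65.6% on the sham arrays and 58.5%, 59.5%, 63.2% and 61.7% on the IRI arrays (replicates 1, 2, 3 and 18). Every IRI array lay below every sham array. The means were 65.4% ± 0.739 in sham and 60.7% ± 2.15 in IRI (SD, n = 4). Before scaling, the summed signal of the 4 entries was 379083 ± 39448 in sham and 343973 ± 16112 in IRI, and that of all other miRNAs 200944 ± 22075 and 223413 ± 29490 (SD, n = 4).

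**Figure D1:**
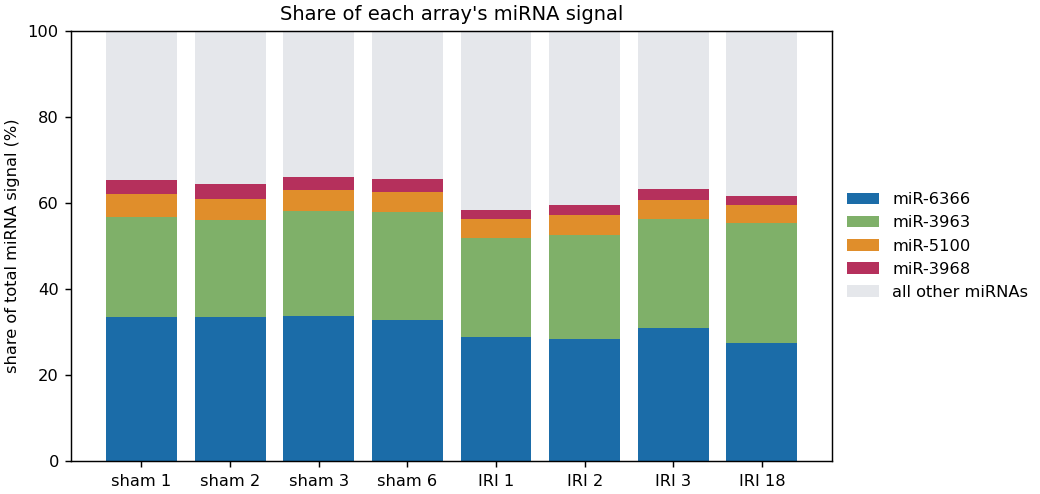
Share of each array's total miRNA signal (percent, vertical axis) held by miR-6366, miR-3963, miR-5100, miR-3968 and all other miRNAs, 1 bar per array. The 4 entries together range from 58.5% on IRI replicate 1 to 66.1% on sham replicate 3.

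miR-6366 alone held 33.4% ± 0.381 of the sham signal and 28.9% ± 1.54 of the IRI signal (SD, n = 4). miR-3963 held 23.9% ± 1.13 and 25.1% ± 2.1, and its groups overlapped. miR-5100 held 4.96% ± 0.221 in sham and 4.39% ± 0.062 in IRI. miR-3968 held 3.14% ± 0.184 and 2.33% ± 0.189. For miR-6366, miR-5100 and miR-3968 all 4 IRI shares lay below all sham shares. How many of all tested miRNAs had shares that separated in this way was not counted. The means cover very unequal entries, since the brighter pair makes up most of the sum.

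The order of the 4 was nearly fixed. By unscaled signal, miR-6366 took place 1 on 7 arrays and place 2 on IRI replicate 18, where miR-3963 took place 1. miR-5100 took place 3 on 7 arrays and place 4 on IRI replicate 18. miR-3968 took place 4 on all 4 sham arrays and place 5 on all 4 IRI arrays. The miRNA that passed it was miR-21a-5p, known to be induced in injured tissue, which stood in places 9 to 12 on the sham arrays, in place 4 on 3 IRI arrays and in place 3 on IRI replicate 18.

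Each entry was then compared between IRI and sham, to ask how the largest signals of the array behave after injury. Signals were scaled to each array's 75th percentile among 317 miRNAs (those detected on every one of the 8 arrays), and 379 miRNAs were tested together (limma, Benjamini-Hochberg, threshold 0.05). Of the 4 entries 3 were called lower and 0 higher, and all 4 changes were below 0. Over everything tested, 139 of 379 miRNAs (36.7%) were called lower and 46 (12.1%) higher, and the median log2 change was -0.11, while that of the 4 entries was -0.52. Lower here means lower relative to the rest of the array.

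miR-3968 had the largest fall of the 4. Its scaled signals were 21494, 19316, 20732 and 19108 on the sham arrays and 11666, 11405, 12974 and 11489 on the IRI arrays. The groups lay far apart, the lowest sham array well above the highest IRI array. The signal fell by 41.1%, which is -0.76 ± 0.07 in log2 units (SE, limma; adjusted p = 0.000398). Of the 379 tested miRNAs 1 had a larger fall, miR-192-3p, at -1.03, named after its value was seen. Its unscaled signals did not overlap either, at 15178 to 21867 in sham and 11406 to 14306 in IRI.

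miR-6366, the brightest entry, had scaled signals of 218367, 196178, 230758 and 212606 in sham and 146181, 138210, 156283 and 148487 in IRI. All IRI arrays again lay below all sham arrays. It fell by 31.3%, or -0.54 ± 0.07 in log2 units (SE, limma; adjusted p = 0.00104). The unscaled signals were 168884 to 222149 in sham and 147405 to 173518 in IRI, and overlapped.

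miR-5100 had scaled signals of 34283, 28698, 33794 and 30772 in sham and 22177, 21686, 22151 and 23454 in IRI. The IRI arrays were close to each other and below every sham array. It fell by 29.7%, or -0.51 ± 0.07 in log2 units (SE, limma; adjusted p = 0.00122). The unscaled signals were 24444 to 34877 in sham and 22824 to 27201 in IRI, and overlapped.

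miR-3963 had scaled signals of 151329, 132913, 168132 and 163003 in sham and 116965, 117524, 127197 and 151825 in IRI. On IRI replicate 18 it reached the sham range, so the groups overlapped. Unscaled, it had 129482 to 153950 in sham and 131060 to 150720 in IRI. The difference of -0.26 ± 0.11 in log2 units (SE, limma; adjusted p = 0.0854) was not called. Without IRI replicate 18 the change was -0.35 (adjusted p = 0.0241, limma), and without sham replicate 2 it was -0.33 (adjusted p = 0.0457, limma), both past the threshold. Without any other single array it was -0.27 to -0.21 and not called (adjusted p = 0.135 to 0.204, limma).

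**Figure D2:**
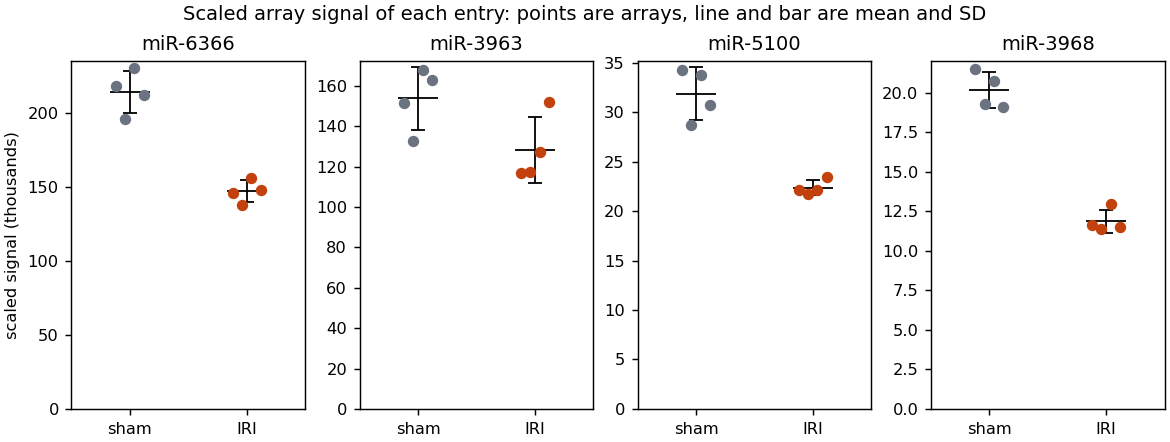
Scaled signal (in units of 1000, linear axis from 0, a separate axis for each entry) of the 4 entries on the 4 sham and 4 IRI arrays. Points are arrays, and the horizontal line and bar are the mean and SD. Groups are separate for miR-6366, miR-5100 and miR-3968, and overlap for miR-3963.

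The groups did not overlap, with IRI lower, for 3 of the 4 entries and for 136 of 379 tested miRNAs (35.9%). Each of the 4 slide columns held 1 sham and 1 IRI array, and within every column the scaled signal of all 4 entries was lower in IRI. For the 3 entries without overlap any pairing of arrays gives this by construction, so it adds no support for them. How many of all tested miRNAs were lower in every column was not counted. The log2 change within columns ran from -0.88 to -0.68 for miR-3968, from -0.58 to -0.51 for miR-6366, from -0.63 to -0.39 for miR-5100 and from -0.40 to -0.10 for miR-3963. The summed share of the 4 entries was lower in IRI in all 4 columns, again by construction, with differences of -6.90 to -2.84 percentage points. For miR-3963 the other scales differed: its unscaled signal was lower in 2 of 4 columns, with log2 changes of -0.15 to 0.22, and its share in 1 of 4, with differences of -0.222 to 2.81 percentage points. The other 3 entries were lower in all 4 columns on both scales. For the share, and for the unscaled signal of miR-3968, this again follows by construction.

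How far these falls hold depended on what the arrays were scaled to. Across the 379 miRNAs the middle value of the change moved from -0.11 with the 75th percentile to 0.17 without scaling, 0.18 with the spike-ins and 0.20 with total signal. The spike-ins are the control spots dmr_285 and dmr_31a, which were assumed to be labelling spike-ins because the files do not name their role, so every spike-in value rests on that assumption. miR-3968 kept a negative change in every setting run. It was -0.44 with the spike-ins (adjusted p = 0.0461, limma), when 0.528% of miRNAs were called lower, and -0.46 without scaling (adjusted p = 0.0547, limma), when 0.264% were. Called higher were 19.8% with the spike-ins and 14% without scaling. miR-6366 changed by -0.24 without scaling (adjusted p = 0.172, limma) and -0.22 with the spike-ins (adjusted p = 0.168, limma). miR-5100 changed by -0.21 (adjusted p = 0.288, limma) and -0.19 (adjusted p = 0.28, limma), so neither was called. miR-3963 turned sign, to 0.040 without scaling and 0.057 with the spike-ins. Relative to the median of all tested miRNAs, which a factor per array leaves nearly the same by construction, the main values were -0.65 for miR-3968, -0.43 for miR-6366, -0.40 for miR-5100 and -0.15 for miR-3963. Quantile normalization, which is no such factor, gave -0.68, 0.0013, -0.026 and 0.18 in the same order. It gives each place in rank 1 value on every array. The quantile value of miR-3968 is thus set by its move from place 4 on all sham to place 5 on all IRI arrays. Normexp background correction gave -0.52, -0.30, -0.27 and -0.028.

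Scaling each array to its total signal was another setting. miR-3968 then changed by -0.43 ± 0.08 (SE, limma; adjusted p = 0.00532), miR-6366 by -0.21 ± 0.06 (adjusted p = 0.0253) and miR-5100 by -0.18 ± 0.05 (adjusted p = 0.0384). miR-3963 changed by 0.069 ± 0.07 (adjusted p = 0.478). With this scaling 4.49% of all tested miRNAs were called lower and 26.6% higher. Since these entries make up most of that total, they partly set their own scale. With the total taken without them, the changes were -0.61 (adjusted p = 0.00171), -0.39 (adjusted p = 0.00431), -0.35 (adjusted p = 0.00327) and -0.11 (adjusted p = 0.37), in the same order.

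**Figure D3:**
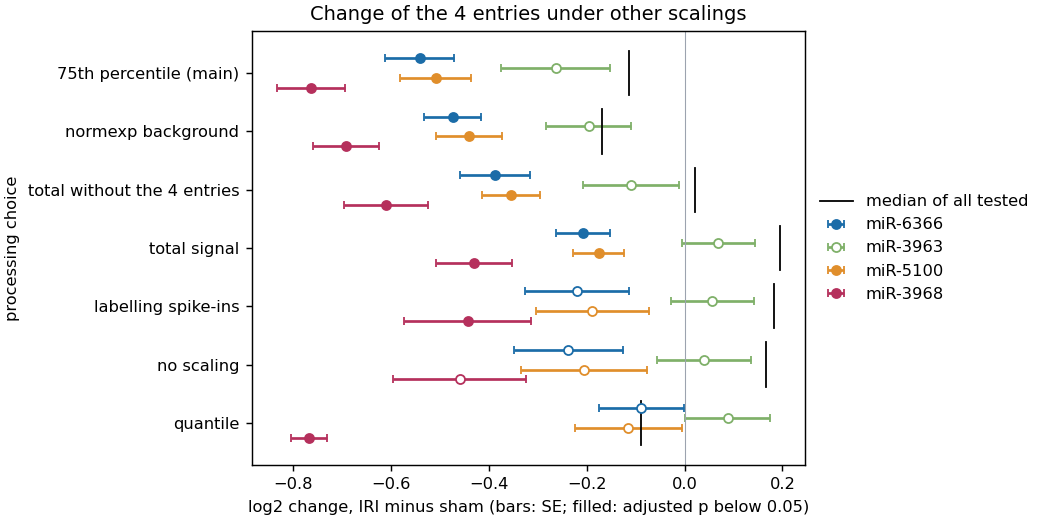
Log2 change, IRI minus sham, of the 4 entries under 7 processing choices, the labelling spike-ins being assumed as such. Points are fitted changes with SE bars, filled where the adjusted p is below 0.05, and the black tick is the median of all tested miRNAs. miR-3968 stays below 0 throughout, from -0.77 to -0.43, while miR-3963 lies on either side of 0. The -0.77 is the quantile value, which is set by place in rank.

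Ratios between the entries within an array need no scaling. The level of such a ratio also reflects how well each probe binds, so only its change is read. In all, 6 pairs were compared (exact permutation test, two-sided; 4 against 4 arrays cannot give a p below 0.0286). miR-3968 fell against each of the other 3. Its log2 ratio to miR-6366 went from -3.41 ± 0.08 in sham to -3.63 ± 0.05 in IRI (SD, n = 4), which is a difference of -0.22. The difference was -0.25 against miR-5100 and -0.50 against miR-3963. miR-6366 fell against miR-3963 by 0.28 on the log2 scale. In these 4 pairs no IRI array overlapped a sham array. Each had an exact permutation p of 0.0286 (0.0429 after Benjamini-Hochberg adjustment over the 6 pairs). Since the pairs share entries, they are not independent of each other. How often ratios between other tested miRNAs separate was not counted. miR-5100 over miR-3963 differed by -0.24, with groups that touched (exact p = 0.0571, adjusted 0.0686). miR-6366 over miR-5100 differed by -0.03, from 2.75 ± 0.05 in sham to 2.72 ± 0.07 in IRI (SD, n = 4; exact p = 0.457), less than the spread between arrays.

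**Figure D4:**
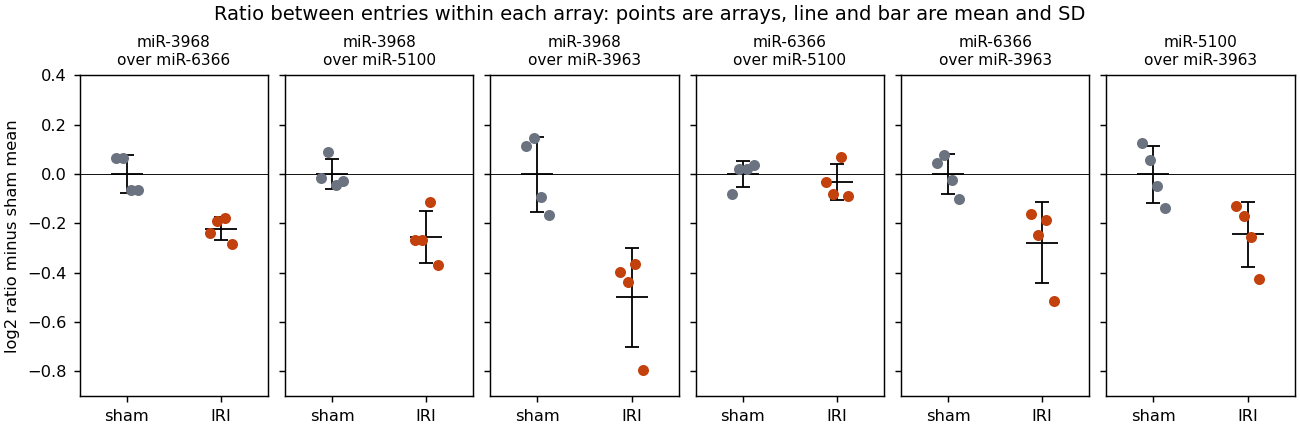
Log2 ratio between 2 entries within each array, minus the sham mean of that ratio, for the 6 pairs. Points are arrays, and the line and bar are the mean and SD. The 3 ratios with miR-3968 on top are lower on every IRI array, whereas miR-6366 over miR-5100 overlaps. IRI replicate 18 is the lowest in the 3 ratios to miR-3963.

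The 2 probes of an entry were read on separate spots, 15 per probe and array, and are not independent of the sums above. Of the 8 probes 6 were called lower, both probes of miR-3968, miR-6366 and miR-5100, where 235 of 539 tested probes (43.6%) were called lower. The log2 change was -0.74 ± 0.10 for the shorter and -0.76 ± 0.07 for the longer miR-3968 probe (SE; adjusted p = 0.000586 and 0.000213, limma). The shorter probe was read at 829 to 1061 in sham and 521 to 637 in IRI, and the longer at 18280 to 20433 and 10849 to 12337. The probes of miR-6366 were read at 132437 to 155246 in sham and 94434 to 107225 in IRI (shorter) and at 63741 to 75513 and 43776 to 49058 (longer), also without overlap. For miR-6366 the changes were -0.52 and -0.59, for miR-5100 -0.51 and -0.51, and for miR-3963 -0.24 and -0.27, the last pair not called (adjusted p = 0.109 and 0.0612, limma). The change of the longer probe relative to the shorter was largest for miR-6366, at -0.08 on the log2 scale. It had an exact permutation p of 0.0571 (0.229 after Benjamini-Hochberg adjustment over the 4 entries). For the other 3 it lay between -0.03 and 0.01 (exact permutation p of 0.143 to 0.771). The median coefficient of variation between spots of a probe on 1 array was 2.31% to 6.55%.

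The next miRNAs in rank were compared in the same fit. Of the 10 brightest other miRNAs 9 were called lower and 1 higher, with a median log2 change of -0.44. They include let-7a-5p, let-7f-5p and let-7c-5p, of a family that restrains growth genes, with changes of -0.46, -0.49 and -0.43, and the tubule miRNA miR-30a-5p with -0.42. The 1 that rose was miR-21a-5p, with a change of 1.47 (adjusted p = 0.000633, limma). Late entries as a group are described by their counts. Of the 146 other tested entries numbered 1000 or above, 15 were called lower and 20 higher, with a median change of 0.18. Of the 229 tested miRNAs with lower numbers 121 were lower and 26 higher, with a median of -0.29. The brightest of the other late entries, miR-3473b, stood in place 16 in sham, at 4989, and differed by 0.18 ± 0.32 in log2 units (SE, limma; adjusted p = 0.647).

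**Figure D5:**
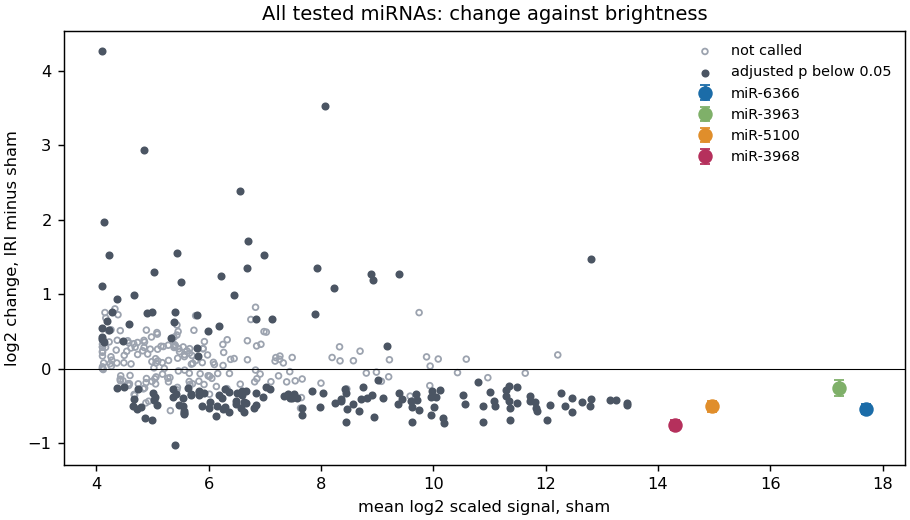
Log2 change, IRI minus sham, against the mean log2 scaled signal in sham for the 379 tested miRNAs. Filled grey points have an adjusted p below 0.05, and the 4 entries are coloured with SE bars. They lie at the bright end, from 20163 to 214477 on the linear scale, and all 4 lie below 0.

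The profile over the 8 arrays was also compared with that of the other 316 miRNAs detected on all arrays, as the root mean square difference of log2 values after each was centred on its own mean. A small value means a like pattern, including the difference between the groups. Nearest to miR-3968 were miR-652-5p (0.077), miR-185-5p (0.09) and miR-192-5p (0.093), where the median over all miRNAs was 0.328. miR-6366 and miR-5100 were near each other (0.057), in place 3 for both, and had the same 3 miRNAs nearest: miR-212-3p, miR-6368 and miR-429-3p, at 0.053, 0.054 and 0.063 for miR-6366 and at 0.059, 0.044 and 0.048 for miR-5100. Nearest to miR-3963 were miR-6965-5p (0.067), miR-3473g (0.082) and miR-7050-5p (0.099), and no other of the 4 entries was closer than place 60. miR-3968 and miR-3963, which share the run AUCCCACU, stood at 0.293 from each other. That was place 141 counted from miR-3968 and place 207 counted from miR-3963. The median over all miRNAs was 0.231 for miR-6366, 0.228 for miR-5100 and 0.237 for miR-3963.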

How the data were processed

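The members, lists and tests were chosen with earlier results of these data known. Per the labels' protocols, RNA from 30 mg of kidney was purified and 100 ng was end-labelled with Cy3. The deposited scanner files hold spot intensity, already background-subtracted (Agilent Feature Extraction 12.0.3.1, per the submitters' processing notes), with no scaling between arrays. The authors' table of values gives each miRNA as a linear ratio, as deposited, made by the authors in a way not given in the sources used here; its column medians were 0.859, 1.23, 1.29 and 1.3 (sham) and 0.658, 0.646, 1.16 and 0.749 (IRI), and it served as an alternative, with its scaling and centring unknown.

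Control spots and outlier spots (1422 to 1560 per array) were left out. Processed signals were averaged per probe, summed per miRNA, divided by each array's 75th percentile among 317 miRNAs (detected on every array), floored at 17.3 and taken to log2. Shares use unscaled signals with values below 0 set to 0. A miRNA was tested if every array of either group detected it (379 miRNAs), with limma 3.58.1 (R 4.3.3), and the 539 probes well above background likewise, with no covariate; the fit was tested on simulated data. Array number, 4 per group, limits the precision. No pair of replicates held the same values. The named miRNAs are the 4 entries, their 3 nearest profiles each, the 10 brightest others and the neighbours in rank; miR-3473b was chosen after its value was seen. All 4 entries matched the RefSeq miRNA table (GRCm38.p6), as did 317 of 379 tested miRNAs; the array design names build mm9. RNAfold 2.7.2 gave folding energies.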

Additional observations from a re-analysis of the deposited data

Results flagged for a closer look

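In 2 of 46 groups of 4 values checked, 1 array stood apart from the other 3, where chance marks about 1 group in 20. The log2 ratio of miR-6366 to miR-5100 was 2.67 on sham replicate 1 and 2.77 to 2.79 on the other sham arrays, a gap of 0.855 of the range. The log2 ratio of miR-3968 to miR-3963 was -3.72 on IRI replicate 18 and -3.37 to -3.29 on the other IRI arrays, a gap of 0.833 of the range.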

How the results depend on the processing

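Leaving out each array in turn gave log2 changes of -0.81 to -0.73 for miR-3968 and -0.58 to -0.50 for miR-6366. They were -0.55 to -0.47 for miR-5100 and -0.35 to -0.21 for miR-3963. All but miR-3963 were called each time. Over all tested miRNAs 36 to 64 were higher and 114 to 144 lower. Of the 8 probes 6 to 8 were lower, and the share over all tested probes was not counted for these fits. The within-array differences then ranged from -0.24 to -0.20 (miR-3968 over miR-6366), -0.30 to -0.22 (over miR-5100), -0.55 to -0.40 (over miR-3963), -0.32 to -0.20 (miR-6366 over miR-3963), -0.29 to -0.18 (miR-5100 over miR-3963) and -0.07 to -0.01 (miR-6366 over miR-5100), as values without a test, since 3 against 4 arrays cannot give a p below 0.0571.

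Over all tested miRNAs, counts higher and lower were 53 and 1 without scaling, 101 and 17 with total signal, 77 and 92 with that total without the 4 entries, 75 and 2 with the assumed spike-ins, 18 and 159 with normexp, and 21 and 90 when all 1881 were tested. With no scaling the changes were -0.46 (miR-3968), -0.24 (miR-6366), -0.21 (miR-5100) and 0.040 (miR-3963), the first 3 no longer called. The control spots assumed to be spike-ins gave -0.22 and -0.19 for miR-6366 and miR-5100, not called, and 0.057 for miR-3963, and total signal gave 0.069 for miR-3963. Quantile normalization gave -0.088, -0.11 and 0.088 for miR-6366, miR-5100 and miR-3963, none called; there each place in rank has 1 value on every array by construction. The deposited table gave -0.32 for miR-3963, then called (adjusted p = 0.0385, limma). Probe calls of the 4 entries were 1 without scaling and 3 with total signal. The share called over all tested probes was not counted in these settings. The 2 miR-3963 probes turned to 0.062 and 0.030 without scaling, and to 0.092 and 0.059 with total signal. Keeping outlier spots took miR-5100 over miR-3963 to -0.26 (adjusted 0.0343, exact permutation test). The share of the 4 entries was 66.2% in sham by the scanner's total gene signal, and 44.7% in sham and 41.3% in IRI with normexp, whose offset adds 50 to every spot.

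Numbers 1, 2 and 3 occur in both groups, but same-numbered samples did not deviate together (correlations of -0.16, -0.20 and 0.24). Not every sample correlated best with its own number. Same-numbered samples also lay in the same slide column, so pairing by number and by column is the same for them. Sham replicate 6 and IRI replicate 18, which shared slide column 4, had a correlation of 0.50. With the replicate block, 17 miRNAs were higher and 50 lower, and miR-3968, miR-6366 and miR-5100 stayed called (adjusted p = 0.0395, 0.0454 and 0.0475, limma). The causes of these differences were not tested where none is stated.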
